A study of Mus musculus with 4 samples.

Results

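Immediate early genes were examined in cultured primary myoblasts, the progeny of muscle satellite cells, from mice with an intact or a deleted Tet2 gene. The 10 genes Fos, Fosb, Jun, Junb, Egr1, Egr2, Atf3, Ier2, Ier3 and Dusp1 were taken by symbol from a table of 24445 genes, and all 10 were present. The series held 4 RNA libraries on the C57BL/6 background, 2 from WT mice and 2 from mice with a constitutive deletion within Tet2 (Tet2 KO), an enzyme that oxidises 5-methylcytosine in DNA. The deletion is carried by every cell of the animal and is not limited to muscle. Unless stated otherwise in the study, the animals were young adult males. Satellite cells from hindlimb muscle were sorted as CD34+ and integrin alpha 7+ cells that lacked CD45, CD11b, CD31 and Sca1, and were grown on collagen until they had become MyoD+ myoblasts. No treatment or growth stimulus distinguished the groups.

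Immediate early genes are transcribed within minutes of a growth factor, serum or stress signal, without a need for new protein, and their mRNAs are short-lived. Ras-ERK and stress kinases reach their promoters through serum response factor with its ternary complex partners and through CREB and related factors. Their products include AP-1, a dimer of a Jun protein with a Fos, Jun or ATF protein, the Egr zinc finger factors and feedback inhibitors such as the phosphatase Dusp1. In muscle these genes are known to respond to cell isolation, injury and mechanical load, and AP-1 is known to restrain the activity of MyoD.

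Each gene had 1 FPKM value, which is a level scaled for transcript length and for the number of mapped fragments, per group, and no value per library. The sources used here do not state how the 2 libraries of a group entered that value, and the study describes its comparison as run between pairs of KO and WT samples. The spread between libraries was therefore not visible, no difference below has a replicate check, and no p-value is given. Differences are reported as the fold between the deposited FPKM values and as a log2 ratio of Tet2 KO over WT after adding 1 FPKM to each value, which shrinks the ratios of low genes. Unless a count is said to rest on deposited values, genes were counted past 2-fold or 1.5-fold by the ratio with 1 FPKM added. Of the 10 genes, 9 had a mean FPKM of at least 1, as did 11692 genes of the table, and Fosb did not. Depth was unknown. Tet2 itself had 5.79 FPKM in Tet2 KO against 6.64 in WT, a value over the whole gene that does not show the deleted segment and so does not check the labels. The myoblast regulator Myod1 had 313 FPKM in Tet2 KO against 336 in WT. Myog, a gene of muscle differentiation, had 268 FPKM in Tet2 KO against 554 in WT, so the cultures held differentiating cells.

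The immediate early genes leaned towards Tet2 KO as a group by a small median. Of them, 2, Ier3 and Egr2, were higher in Tet2 KO by more than 1.5-fold. With 1 FPKM added, 0 of the 9 genes past the level filter were at least 2-fold higher in Tet2 KO, against 2.08% of all genes, and 0 of 9 were at least 2-fold lower, against 1.21% of all genes. By the deposited values, with nothing added, 1 of 9 was at least 2-fold higher, Egr2, against 2.95% of all genes, and 0 of 9 were at least 2-fold lower, against 1.92%. With 1 FPKM added, 2 of 9 were at least 1.5-fold higher, against 3.72% of all genes, and at least 1.5-fold lower were 0 of 9, against 2.89%. In direction, 6 genes were higher and 3 lower (Jun, Egr1 and Dusp1), while 48.8% of all genes were higher and 51.2% lower. The median log2 ratio of the 9 genes was 0.17, and that of all 11692 genes was -0.0044. The lower and upper quartiles of all genes were -0.11 and 0.09, so the median of the 9 lay above the upper quartile. The 9 genes spanned -0.45 to 0.83, and the central 95% of all genes spanned -0.65 to 0.88, so each of the 9 lay inside that range. That range includes low genes, which scatter more. Among the 3627 genes averaging 20 to 100 FPKM the central 95% spanned -0.48 to 0.35, and Ier3, a gene of this level, lay above it.

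**Figure D1:**
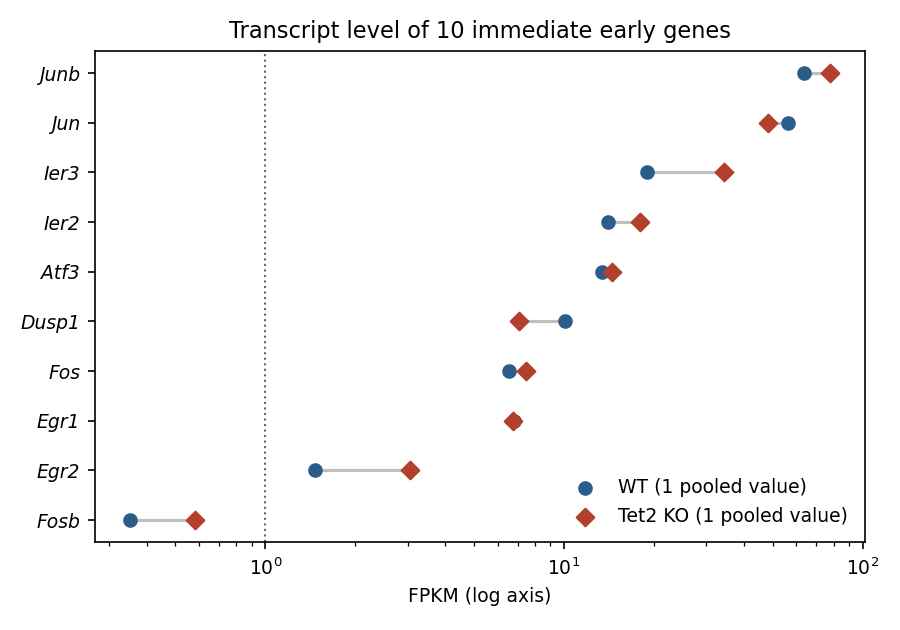
FPKM of each gene in WT (blue circles) and Tet2 KO (red diamonds) on a log axis, 1 value per group, with a dotted line at 1 FPKM. Ier3 and Egr2 show the widest gaps among genes above 1 FPKM, both towards Tet2 KO, Dusp1 shows the widest gap towards WT, and the values of Egr1 coincide.

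The levels of the 10 genes covered a wide range in these cultures. Junb was the most abundant in both groups, followed by Jun and then by Ier3. Fosb was the least abundant, and the FPKM of Junb was 134 times that of Fosb in Tet2 KO and 181 times in WT. Among all 11692 genes past the level filter, Junb ranked 1330th by mean FPKM, Jun 1825th, Ier3 3584th and Egr2 10473rd. In WT the next in order were Ier2, Atf3, Dusp1, Egr1, Fos and Egr2. In Tet2 KO the order was Ier2, Atf3, Fos, Dusp1, Egr1 and Egr2, so the change of order was the move of Fos above Dusp1 and Egr1. These 3 genes lay between 6.54 and 10.1 FPKM in both groups, and whether neighbours in the order differ beyond the spread of libraries cannot be told from 1 value per group.

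To show what the regulatory regions of these genes hold, promoter windows from 250 bases before to 50 bases after each RefSeq start (GRCm38.p6) were searched on both strands. Windows were found for 8 of the 10 genes, with 5 for Egr2 and 1 for each other gene. Egr1 and Ier2 had none. Stretches upstream of an annotated start are printed 5′ to 3′ on the gene's strand. They are given for the most abundant genes (Jun, Junb), the genes with the largest ratios (Ier3, Egr2, Dusp1) and Fos, the classical member. With the Egr2 starts lettered a to e along the chromosome, its stretch lies before start b and downstream of start a. Capitals mark, in order, the NF-kappaB site, a pair of cAMP response half-sites, the TATA box and the E box in Fos, the CCAAT box and the cAMP response element variant in Jun, a half-site, the CCAAT box and the E box in Junb, the CArG box in Egr2, the E box and the NF-kappaB site in Ier3, and a half-site and the full cAMP response element in Dusp1. The stretches are chr12:85473670-85473889 (Fos, plus strand), chr4:95052223-95052342 (Jun, minus strand), chr8:84978749-84978868 (Junb, minus strand), chr10:67537484-67537513 (Egr2, plus strand), chr17:35821564-35821683 (Ier3, plus strand) and chr17:26508520-26508669 (Dusp1, minus strand).
Fos: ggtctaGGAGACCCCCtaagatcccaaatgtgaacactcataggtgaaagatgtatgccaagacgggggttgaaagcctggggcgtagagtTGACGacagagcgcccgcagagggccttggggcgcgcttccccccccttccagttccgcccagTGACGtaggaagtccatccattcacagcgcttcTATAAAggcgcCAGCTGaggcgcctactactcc
Jun: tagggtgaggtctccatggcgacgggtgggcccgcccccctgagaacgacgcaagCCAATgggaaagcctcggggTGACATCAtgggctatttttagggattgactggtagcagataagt
Junb: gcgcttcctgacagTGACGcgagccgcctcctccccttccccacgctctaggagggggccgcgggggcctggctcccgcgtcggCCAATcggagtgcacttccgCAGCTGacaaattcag
Egr2: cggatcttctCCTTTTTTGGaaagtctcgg
Ier3: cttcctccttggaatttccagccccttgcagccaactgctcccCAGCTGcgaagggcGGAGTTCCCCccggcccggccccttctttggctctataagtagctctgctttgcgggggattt
Dusp1: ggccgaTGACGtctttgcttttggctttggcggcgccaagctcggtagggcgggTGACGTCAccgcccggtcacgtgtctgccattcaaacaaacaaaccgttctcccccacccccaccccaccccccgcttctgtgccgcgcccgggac

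The cAMP response half-site TGACG, the core of the element bound by CREB and ATF proteins, was in the windows of 6 of 8 genes (Fos, Fosb, Junb, Egr2, Atf3 and Dusp1), against 23.0% of the 27025 genes with a window and 20.8% of the 32851 windows. The full element TGACGTCA, which contains the half-site, was in the Dusp1 window, where it starts 143 bases before the start site. It was in 2.03% of genes and in 1.79% of all windows. The variant TGACNTCA, which includes that element, was in the Jun window, 45 bases before the start, in the Dusp1 window, and in 8.83% of all windows. The letters TGACTCA, an AP-1 element, were in 0 of the 8 genes' windows, against 5.95% of genes and 5.20% of all windows. The CArG box, the letters bound by serum response factor, was in windows of 1 of 8 genes, Egr2, against 1.81% of genes and 1.63% of all windows. It was in 4 of the 5 Egr2 windows, b to e, but windows c to e overlap and hold the same box. Sequence further upstream than the windows was not searched, and Egr1 and Ier2 were not searched at all. The lack of a CArG box in a window therefore does not show that a gene lacks one. The NF-kappaB site was in windows of 4 of 8 genes (Fos, Fosb, Egr2 and Ier3), against 9.55% of genes and 8.46% of all windows. Egr2, with 5 windows, had more room for a match than the others. In Ier3 the NF-kappaB site starts 92 bases before the start site. The E box CAGCTG, of the kind MyoD binds, was in the windows of Fos, Junb and Ier3, in 18.3% of genes and in 16.3% of all windows. TATAAA was in the windows of Fos and Junb, in Junb just after the start, in 15.7% of genes and in 13.6% of all windows. CCAAT was in windows of 5 of 8 genes (Jun, Junb, Egr2, Atf3 and Ier3), against 41.1% of genes and 37.4% of all windows. GCGNGGGCG, the letters of an Egr site, was in the Fosb window, in 6.27% of genes and in 5.55% of all windows. A match is a description of letters, and the genes that hold the half-site include the higher Egr2 and the lower Dusp1.

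**Figure D2:**
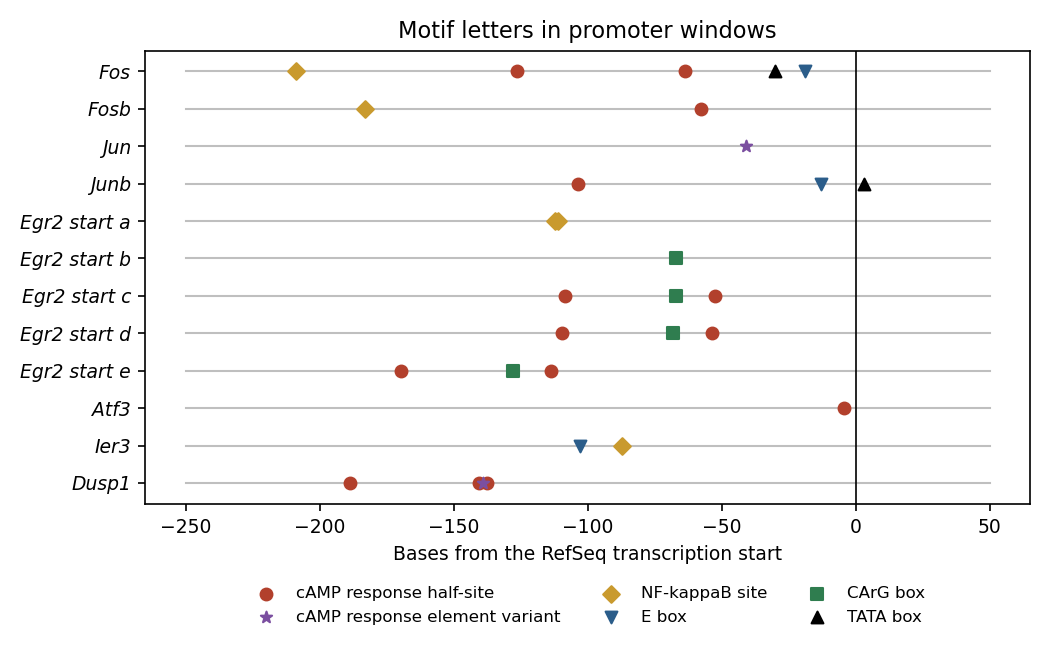
Positions of named motifs in the 12 promoter windows of 8 genes, in bases from the RefSeq start at 0, with 1 grey line per window and Egr2 shown with its 5 starts (a to e). Half-sites of the cAMP response element recur across 6 genes, and CArG boxes are in Egr2 windows b to e, with the same box in c to e.

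The AP-1 genes differed in direction. Junb, whose protein is a weaker activator than Jun and is often growth-restraining, had 77.9 FPKM in Tet2 KO against 63.5 in WT, 1.23-fold higher with a log2 ratio of 0.29. Jun, the main activating subunit, had 48.2 FPKM in Tet2 KO against 56.1 in WT, 1.16-fold lower with a log2 ratio of -0.22. The FPKM of Junb was 1.62 times that of Jun in Tet2 KO and 1.13 times in WT. Both are genes of a single exon. By GENCODE vM1, Jun (mm9, chromosome 4, 94715727 to 94718913, minus strand) shares 232 exonic bases with BC042782 on the opposite strand, and the library kit did not mark strand, so reads of the pair cannot be told apart there. Junb lies on chromosome 8 from 87500808 to 87502647.

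Fos, the defining partner of Jun, had 7.47 FPKM in Tet2 KO against 6.54 in WT, 1.14-fold higher with a log2 ratio of 0.17. It lies on chromosome 12 from 86814851 to 86818219 and has 4 exons in its longest transcript. Fosb, a close relative of Fos, had 0.581 FPKM in Tet2 KO against 0.351 in WT. That is a 1.66-fold difference between low values, and its log2 ratio with 1 FPKM added was 0.23. Atf3, a stress-induced bZIP factor that pairs with Jun proteins, had 14.5 FPKM in Tet2 KO against 13.4 in WT, with a log2 ratio of 0.11. It spans chromosome 1 from 192994176 to 193007212, the longest locus of the 10 genes.

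The 7 Fos and Jun genes summed to 175 FPKM in Tet2 KO against 167 in WT, and most of it came from Jun genes. The Fos family (Fos, Fosb, Fosl1, Fosl2) made up 20.2% of the sum in Tet2 KO and 18.1% in WT. Junb made up 44.5% in Tet2 KO and 38.1% in WT, and Jun made up 27.5% and 33.6%. Fos itself was 4.27% in Tet2 KO and 3.92% in WT, below Fosl2 with 9.42% and 9.22%. Fosl1, a Fos relative induced with a delay, had 10.9 FPKM in Tet2 KO against 7.88 in WT, with a log2 ratio of 0.42. Jund, the constitutive Jun gene, had 13.6 FPKM in Tet2 KO against 17.0 in WT, with a log2 ratio of -0.30. In Tet2 KO, Junb thus took a larger share than in WT, while Jun and Jund took smaller shares.

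**Figure D3:**
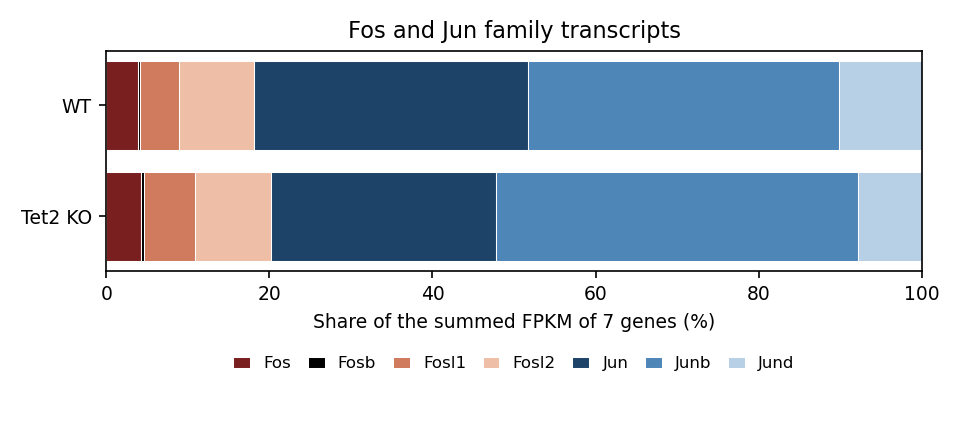
Share of the summed FPKM of the 7 Fos and Jun genes in WT and Tet2 KO (percent, 1 stacked bar per group). Jun genes fill 81.9% of the WT bar and 79.8% of the Tet2 KO bar, and the Junb segment is wider in Tet2 KO.

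Among Egr genes, which encode zinc finger transcription factors of GC-rich promoters, Egr1 was level and Egr2 was not. Egr1 had 6.75 FPKM in Tet2 KO against 6.78 in WT, a log2 ratio of -0.0064. It lies on chromosome 18 from 35020861 to 35024610, where it shares 8 exonic bases with Gm17507 on the opposite strand. Egr2, also known as Krox20, had 3.06 FPKM in Tet2 KO against 1.47 in WT, 2.08-fold higher by the deposited values. Its log2 ratio with 1 FPKM added was 0.72, higher than that of 96.9% of genes. Low genes scatter more: of the 2818 genes averaging 1 to 5 FPKM, 8.98% were at least 1.5-fold higher and 4.65% at least 1.5-fold lower. Egr2 lies on chromosome 10 from 67000617 to 67004936.

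Egr1 gave 79.0% of the summed Egr family FPKM in WT and 64.5% in Tet2 KO, and Egr2 gave 17.1% and 29.2%. Egr3, at 0.634 FPKM in Tet2 KO against 0.310 in WT, and Egr4, at 0.0282 and 0.0279 FPKM, were below the level filter. The corepressors Nab1 and Nab2, which bind Egr proteins and curb their activity, were both higher in Tet2 KO. Nab2, itself known as an Egr-induced gene, had 18.1 FPKM in Tet2 KO against 13.6 in WT, with a log2 ratio of 0.39. Nab1 had 17.1 FPKM in Tet2 KO against 14.2 in WT, with a log2 ratio of 0.26.

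Ier3, also known as IEX-1, encodes a small regulator of survival and ERK signalling that is induced by growth factors and by NF-kappaB. It had 34.3 FPKM in Tet2 KO against 18.9 in WT, 1.81-fold higher. Its log2 ratio of 0.83 was the highest of the 9 genes and was above that of 97.4% of all genes. Of the 3627 genes averaging 20 to 100 FPKM, 1.19% were at least 1.5-fold higher, so few genes of this level differed as much. Ier3 lies on chromosome 17 from 35958658 to 35959856. Its neighbour Flot1, 445 bases away, had 24.4 FPKM in Tet2 KO against 25.2 in WT, a log2 ratio of -0.05. Ier2, a nuclear protein gene induced by serum, had 17.9 FPKM in Tet2 KO against 14.0 in WT, 1.28-fold higher with a log2 ratio of 0.33. The related Ier5 and Ier5l had log2 ratios of 0.20 and 0.31, so all 4 Ier genes were higher in Tet2 KO.

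Dusp1, also known as MKP-1, encodes a nuclear phosphatase that switches off p38, JNK and ERK, and its difference was opposite in sign to that of Ier3. It had 7.08 FPKM in Tet2 KO against 10.1 in WT, 1.42-fold lower. The log2 ratio of -0.45 was the lowest of the 9 genes, and 4.13% of all genes had a lower ratio. Dusp1 lies on chromosome 17 from 26642536 to 26645417. Of the 10 MAP kinase phosphatase genes, 9 passed the level filter, 6 were higher and 3 lower, and their median log2 ratio was 0.12. Dusp2, an inducible nuclear phosphatase known from activated leukocytes, had the highest log2 ratio, 0.83. Its level was 20.4 FPKM in Tet2 KO against 11.1 in WT. The ERK feedback phosphatases Dusp5 and Dusp6 had log2 ratios of 0.43 and 0.29, and Dusp4 had -0.04. Dusp1 thus had the lowest ratio of the 9 phosphatase genes past the filter. Below the filter, Dusp8 had 0.577 FPKM in Tet2 KO against 0.961 in WT, a 1.66-fold difference between low values.

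**Figure D4:**
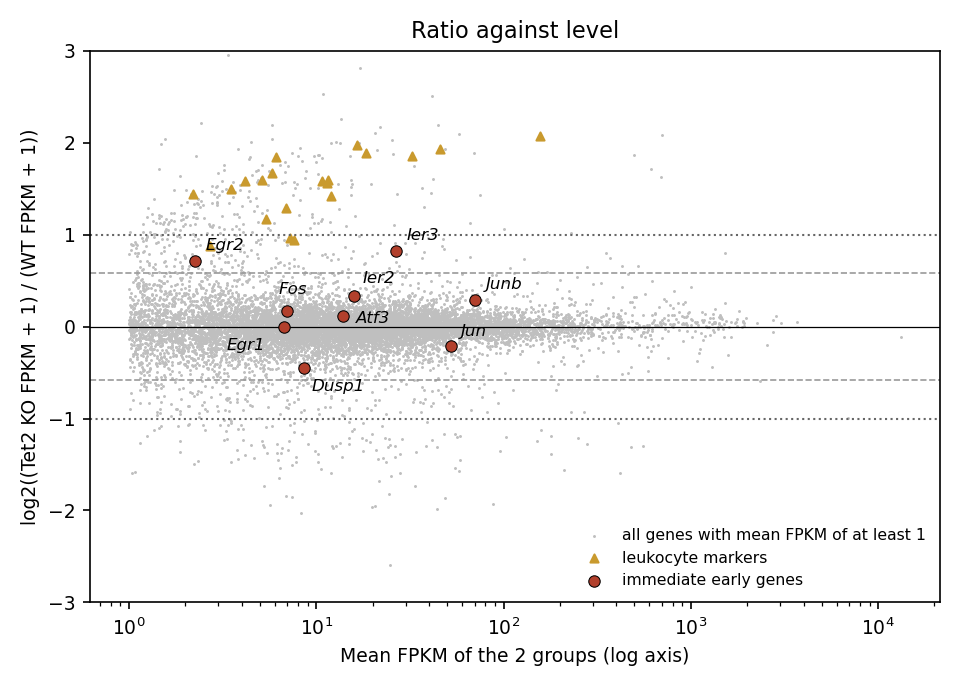
Log2 ratio of Tet2 KO over WT, with 1 FPKM added, against the mean FPKM of the groups for 11692 genes (grey), 20 leukocyte markers (gold triangles) and the 9 immediate early genes past the filter (red circles). Dotted lines mark 2-fold and dashed lines 1.5-fold on that scale, 11 genes lie outside the plotted range, and the red points lie between 2-fold lines while 17 triangles lie above.

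The nearest genes of the table on both sides of each gene were compared with it. Beside Egr2, Ado lay 2322 bases away with a log2 ratio of 0.05 and Nrbf2 had 0.04. Beside Dusp1, Ergic1 had 0.01 and the low gene Neurl1b had -0.11. Beside Junb, Prdx2 lay 2098 bases away with 0.04 and Hook2 had -0.11. Beside Fos, the bZIP gene Jdp2, whose protein represses AP-1 targets, lay 121835 bases away and had 27.1 FPKM in Tet2 KO against 33.5 in WT, a log2 ratio of -0.29. On its other side Tmed10 had 0.09. Beside Jun, whose log2 ratio was -0.22, both neighbours were lower in Tet2 KO as well, Mysm1 with -0.07 and Fggy, 505284 bases away, with -0.50. Beside Fosb, whose log2 ratio was 0.23, Ercc1 had 0.23 and Rtn2 had -0.21. Beside Atf3, Fam71a had 0.03 and Nenf had -0.17, and beside Ier2, Cacna1a had -0.03 and Nacc1 had 0.04. Beside Egr1, Reep2 had -0.0081 and Etf1 had -0.00036. The other neighbour of Ier3, 4833427F10Rik, was listed at 0 FPKM in Tet2 KO and at 0.0551 FPKM in WT. Neighbours of Ier3, Egr2 and Dusp1 thus had ratios closer to 0 than the gene beside them, while Jun, Fosb and Egr1, the latter at ratios near 0, each had a neighbour with a ratio of the same sign and at least as large. By level in both groups, the genes closest to Junb were Ctsb, G6pdx and Grwd1, at distances of 0.03, 0.04 and 0.05 on the log2 scale over the pair of values.

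A wider set of 48 other immediate early genes was examined in the same way. Of these, 45 passed the level filter, 34 were higher in Tet2 KO and 11 lower, and their median log2 ratio was 0.15. With 1 FPKM added, 1 gene was at least 2-fold higher, Ptgs2, and 0 were at least 2-fold lower. By the deposited values 2 were at least 2-fold higher, the other being Arc, an immediate early gene of neurons named after its values were seen, 2.09-fold higher from a WT value of 0.720 FPKM. Ptgs2 encodes the inducible cyclooxygenase COX-2 and had 55.1 FPKM in Tet2 KO against 18.7 in WT, a log2 ratio of 1.51. With 1 FPKM added, 2 of 45 (4.44%) were at least 1.5-fold higher, close to the 3.72% of all genes, and by the deposited values 4 of 45 were. The lowest was Rhob, a small GTPase gene, with 52.6 FPKM in Tet2 KO against 68.5 in WT and a log2 ratio of -0.38. The wider set thus leaned to the same side by a similar median, with ratios that were mostly small.

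Lists of genes upstream of the immediate early response had medians near 0. Of 20 Ras-ERK pathway genes, 10 were higher and 10 lower, with a median log2 ratio of 0.01 and a range from -0.33 (Rps6ka2, an ERK-activated kinase) to 0.42 (Egfr, a growth factor receptor). Of 15 stress kinase genes past the filter, 9 were higher and 6 lower, with a median of 0.05. At least 2-fold higher was 1 of them, Mapk13, a p38 kinase gene, with 13.6 FPKM in Tet2 KO against 5.38 in WT. Serum response factor, Srf, had 23.4 FPKM in Tet2 KO against 24.4 in WT, and its partner Elk3 had the largest difference of the 6 Srf-related genes past the filter, a log2 ratio of 0.35. Of 17 other bZIP genes past the filter, 6 were higher and 11 lower, with a median of -0.04, from Jdp2 at -0.29 to Cebpa at 0.46.

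Genes often reported as AP-1 targets were higher in Tet2 KO throughout. That list was drawn up with earlier results of these data known. All 16 of its genes were higher, against 48.8% of all genes, with a median log2 ratio of 0.59. With 1 FPKM added, 9 were at least 1.5-fold higher, against 3.72% of all genes, and 5 at least 2-fold higher, against 2.08%. The 5 were the matrix metalloproteinase genes Mmp13, Mmp3 and Mmp10, the cytokine gene Lif and the chemokine gene Cxcl1. Mmp13 had 7.46 FPKM in Tet2 KO against 1.35 in WT, a log2 ratio of 1.85. By the deposited values 10 were at least 1.5-fold and 7 at least 2-fold higher, the latter against 2.95% of all genes. The others past 2-fold were Mmp9, with 1.64 FPKM in Tet2 KO against 0.521 in WT, and the cytokine gene Il6, with 22.8 against 11.1. Both were named after their values were seen. Lif had 9.93 and 3.55 FPKM, and Cxcl1 had 90.8 and 41.1 FPKM. The lowest ratio, 0.02, was that of the growth factor gene Vegfa.

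Genes of 3 other responses were compared. Of 13 cytoskeletal targets of serum response factor past the filter, 5 were higher and 8 lower with a median of -0.07, and Fhl1, a muscle LIM protein gene, was at least 2-fold lower, with 12.0 FPKM in Tet2 KO against 35.2 in WT. Of 16 integrated stress response genes, which include targets of Atf4 upstream of Atf3, 7 were higher and 9 lower with a median of -0.03, from Nupr1 at -0.80 to Trib3 at 0.24. Of 15 heat shock and cell dissociation stress genes, 6 were higher and 9 lower with a median of -0.06. Of these, Hspb8, a small heat shock protein gene of muscle, was at least 2-fold lower, with 89.3 FPKM in Tet2 KO against 213 in WT. The inducible Hspa1b was the highest of that list, with 7.11 FPKM in Tet2 KO against 5.01 in WT.

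**Figure D5:**
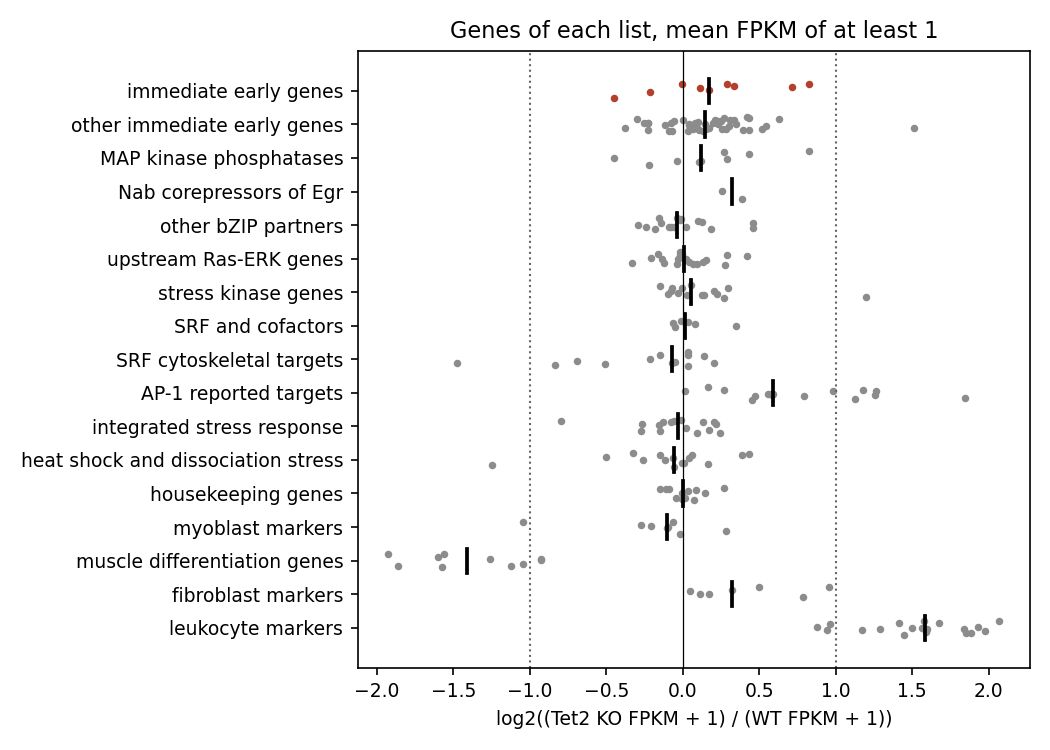
Log2 ratio of Tet2 KO over WT, with 1 FPKM added, for every gene past the level filter in each list (points, vertical jitter only), with the list median as a black bar and dotted lines at 2-fold. The medians of the immediate early genes, 0.17, and of the other immediate early genes, 0.15, lie slightly above 0. Leukocyte markers lie at 1.58 and muscle differentiation genes at -1.41.

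Markers of other cell types differed between the groups as well. All 20 leukocyte markers had the higher value in Tet2 KO. Their median log2 ratio was 1.58, with a range from 0.88 (Cd14) to 2.07 (Lyz2), and their summed level was 589 FPKM in Tet2 KO against 154 in WT, although the sort had left out CD45+ and CD11b+ cells. None of the 20 was at 0 in either group, and the lowest, Adgre1, had 3.67 and 0.712 FPKM. All 7 fibroblast markers past the filter were also higher, with a median of 0.32 and a sum over the list of 489 FPKM in Tet2 KO against 447 in WT. Of 8 endothelial markers 1 passed the filter, Pecam1, with a log2 ratio of -0.08, and that list summed to 4.78 and 6.04 FPKM. In the same libraries all 10 muscle differentiation genes were lower, with a median of -1.41 and a range from -1.92 (Tnnc2) to -0.93 (Ttn). Of the 8 myoblast markers, Myog was at least 2-fold lower and the other 7 lay between -0.27 and 0.28. The part of leukocytes, fibroblasts or differentiating cells in the values of Ier3, Egr2, Ptgs2, Dusp2 and the AP-1 target list was not tested. In bulk samples more cells of a type and more RNA per cell cannot be told apart. The 12 housekeeping genes had a median log2 ratio of 0.0046, with 6 higher and 6 lower.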

How the data were processed

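RNA of 2 WT and 2 Tet2 KO myoblast cultures was sequenced from TruSeq libraries, a kit that does not mark strand. The labels do not say whether libraries came from separate animals. Per the study's methods and the submitters' processing notes, the authors trimmed reads, aligned pairs to mm9 with TopHat2 2.0.13 and ran Cuffdiff 2.2.1. The gene annotation is not given in the sources used here. The authors deposited 1 FPKM value per gene and group, and how the libraries of a group were combined is not given in the sources used here. Their columns of a fold change, a test statistic, p-values, q-values and a verdict per gene hold their own comparison and were not used, so no test was made.

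From the deposited FPKM values, log2((Tet2 KO + 1) / (WT + 1)) was computed for each gene with Python 3.11.15, numpy 2.4.6 and pandas 2.3.3. The step was checked on simulated data whose changes were larger than any difference of the members, so differences of their size were not checked. Counts and medians cover genes averaging 1 FPKM or more, with thresholds of 2-fold and 1.5-fold on this ratio. Table coordinates are mm9 with 1 added to each start. Overlaps and exons came from GENCODE vM1 of the same build, and promoter windows from RefSeq on GRCm38.p6, matched by symbol. Member windows on chromosome 18 were left out. 1 list symbol was matched through a synonym. Named were all members, list genes past 2-fold, the highest and lowest ratio of each list, any gene of families of up to 10, the nearest table gene on each side of a member and the 3 genes closest in level to Junb, with Arc, Mmp9 and Il6 added after their values were seen. The members, lists, motifs and printed stretches were chosen with earlier results of these data known. Alternatives were other pseudocounts, filters, scalings and thresholds.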

Additional observations from a re-analysis of the deposited data

How the results depend on the processing

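No paired analysis was possible because the table holds 1 value per group. Fits without 1 of the libraries were not run, since no library has its own values. Ratios carry no replicate error, so a log2 value was counted as moved at 0.1 or more and a count at over 1.5 times.

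The count of members at least 2-fold higher went from 0 to 1 with a pseudocount of 0.1 and to 1 with no pseudocount, in both cases Egr2 (log2 ratios of 1.01 and 1.06), and to 2 at a fold threshold of 1.5. The count at least 1.5-fold higher, an alternative series chosen after seeing the data, went from 2 to 1 among genes averaging 5 FPKM or more, which leaves out Egr2. All 40 values of single members under other pseudocounts, median centring and TPM had the sign of the main value, and 5 moved, those of Fosb and Egr2, the latter to 0.83 under TPM. A pseudocount cannot turn a sign. By deposited folds, a count also added after seeing the data, list genes at least 2-fold higher went from 5 to 7 for AP-1 targets, 1 to 2 for other immediate early genes, 17 to 20 for leukocyte markers and 0 to 1 for fibroblast markers, and those lower from 8 to 9 for muscle differentiation genes. The median of the members stayed between 0.14 and 0.23, leaving out 1 member at a time included, and that of the other immediate early genes between 0.13 and 0.18. TPM moved the median of all genes from -0.0044 to -0.0012.

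Without depth or values per library, the low genes Fosb and Egr2 are the least certain.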
